A study of Mus musculus with 155 samples.

Results

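The G1 cyclins and their partners are described here across mouse embryonic stem cells (ESCs), retinoic acid (RA)-treated cells and cells differentiated toward oligodendrocyte progenitors (OPCs). The group held 10 genes of the 55471 in the count tables, chosen by name: the D cyclins Ccnd1, Ccnd2 and Ccnd3, the E cyclins Ccne1 and Ccne2, the kinases Cdk4 and Cdk6, and the CDK inhibitors Cdkn1b, Cdkn2a and Cdkn2b. All 10 were matched by Ensembl identifier and all passed the filter on low counts in every comparison. The rule used no measured value, though earlier results of these data were known when the genes were chosen.

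All cells came from KH2 mouse ESCs, a line with a doxycycline (Dox)-inducible locus into which a single copy of SNAP-HA-tagged H3.3 had been placed. The WT-H3.3 cells carried the unchanged histone, the H3.3K27M cells the methionine substitution found in midline gliomas, and the H3.3K27L cells a leucine substitution. A possible duplication of chromosome 8 was seen by the authors in all their clones, so genes of this chromosome were left out. How many clones stand behind each line is not given in the sources used here, so the mutation and other differences between the lines cannot be told apart. ESCs (32 libraries) were grown with LIF and inhibitors of MEK and GSK3, and were sampled at 4, 8, 24 and 72 h of Dox. Each of the 3 lines had 2 replicates a time, as did WT-H3.3 cells given GSK343, an inhibitor of the PRC2 methyltransferase. RA-treated cells (6 libraries, cultured without LIF and those inhibitors) came from all 3 lines with 1 library each at 24 and 72 h of Dox. OPCs (4 libraries, made through embryoid bodies with RA and purmorphamine) came from WT-H3.3 and H3.3K27M cells, again with 1 library each at 24 and 72 h. By the methods, biological replicates were experiments repeated weeks apart; in RA-treated cells and OPCs, the Dox times of a line stood in for replicates.

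In G1, D-type cyclins bind CDK4 or CDK6 and start the phosphorylation of the retinoblastoma protein, and E-type cyclins with CDK2 complete it, which frees E2F factors to drive S phase genes. Cdkn2b (p15) and Cdkn2a bind CDK4 and CDK6 in competition with D cyclins, while Cdkn1b (p27) acts mainly on cyclin E-CDK2. Cdkn2a encodes p16 from one promoter and p19Arf, which stabilizes p53, from another. Cdkn2a and Cdkn2b are classical targets of PRC2, the complex that H3.3K27M inhibits, and mouse ESCs are known for a short G1 with little D-type cyclin activity.

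Levels are given as CPM, the count of a gene scaled to a common library size, after TMM scaling over the 42 libraries. Effects are log2 fold changes from edgeR's quasi-likelihood test. The standard error (SE) given with them is not an output of that test. It was derived as the absolute log2 fold change over the square root of the F statistic. A gene was called, and is described as having risen or fallen, at a Benjamini-Hochberg adjusted p under 0.05 over all genes tested. Total counts ran from 2239137 to 22269533 per library outside 2 shallow ESC libraries. The H3.3K27L library of replicate 2 at 72 h held 68378 counts and the GSK343 library of replicate 2 at 8 h held 1247934. In the former, 3 counts, the limit that a count of 0 allows, correspond to 43.8 CPM, and Ccnd2, Cdkn1b and Cdkn2b had 0 counts there. The 6 ESC markers in the tables (Pou5f1, Nanog, Sox2, Klf4, Esrrb and Dppa5a, of 8 listed) were all at 1 CPM or more in every ESC library. In RA-treated cells and OPCs, Pou5f1 reached at most 5.34 CPM. All 6 markers were called lower there than in ESCs, where 75.1% and 84.8% of all genes tested were called. Their sum was 3650 to 4925 CPM in WT-H3.3 ESCs and 101 to 138 CPM in WT-H3.3 RA-treated cells. In OPCs it was 320 to 351 CPM with WT-H3.3 and 297 to 334 CPM with H3.3K27M. As these were bulk samples, fewer cells of a type and less RNA per cell cannot be told apart.

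**Figure D1:**
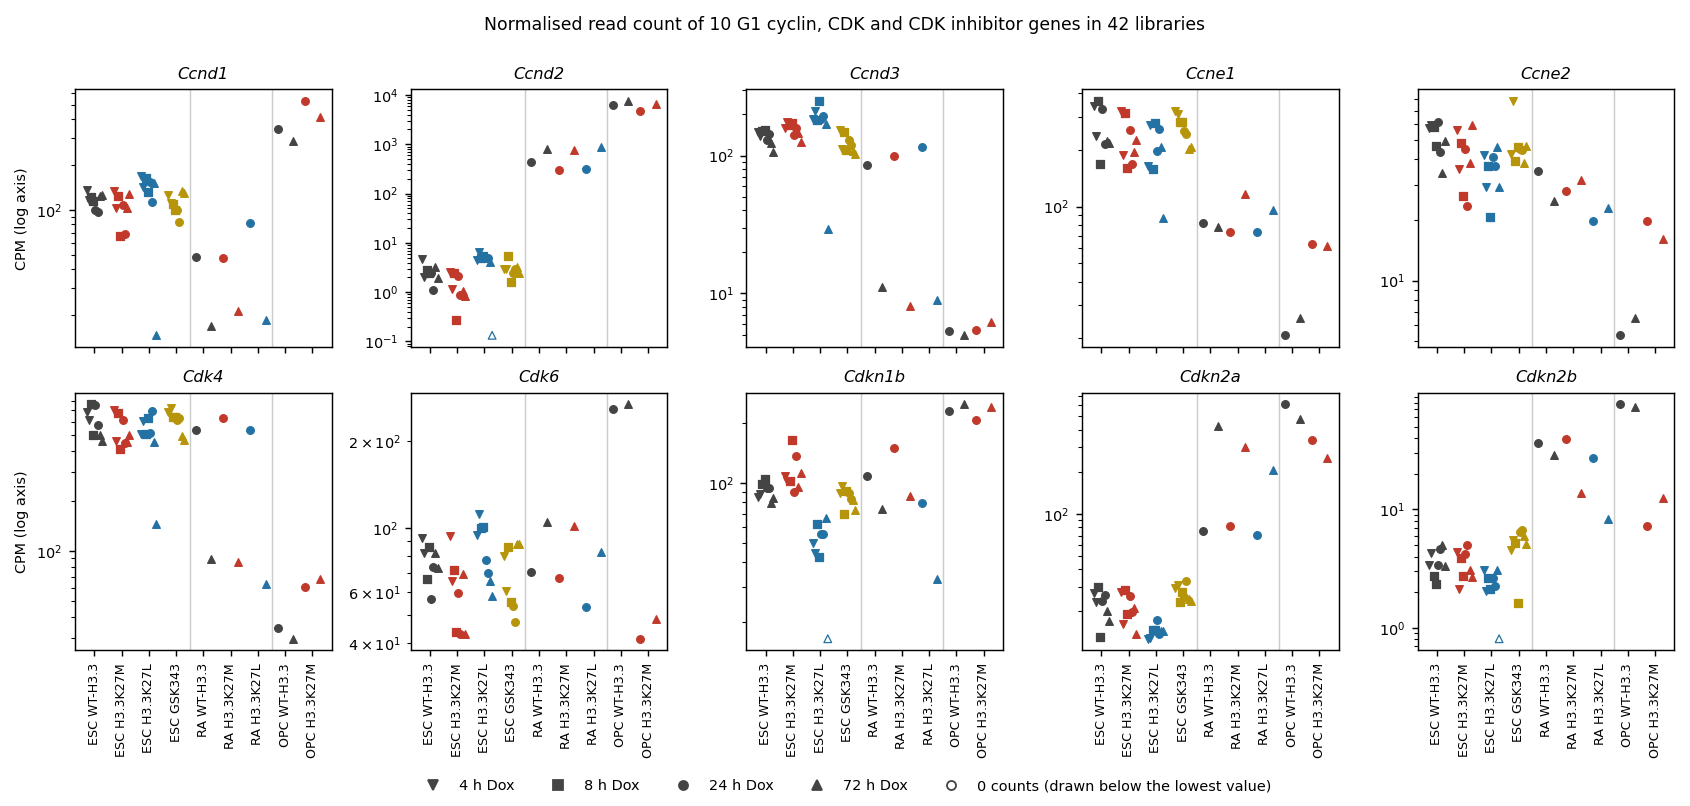
Normalised read count (CPM, log axis) of the 10 genes in each of the 42 libraries, by cell state and line, with 1 point per library and its shape giving the Dox time. Ccnd2 ran from 0 to 6.44 CPM in ESCs and from 4732 to 7546 CPM in OPCs, while Ccnd3 and Cdk4 were lowest in OPCs and in RA-treated cells at 72 h.

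The first comparison asked how the members differed between the 3 cell states, with each line weighted equally. RA-treated cells were set against the 12 ESC libraries, and OPCs against the 8 ESC and 4 RA-treated libraries, of the same lines and Dox times. The ESC medians given beside these tests are over all 32 ESC libraries, which also cover 4 and 8 h of Dox and GSK343. Against ESCs, 8 of the 10 members were called in RA-treated cells (75.1% of all genes tested were) and 10 of 10 in OPCs (84.8%). Between OPCs and RA-treated cells, 8 of 10 were called (64.8%). The members thus differed between states about as often as genes at large. The libraries of the states did not overlap for 3, 9 and 7 of the members in these comparisons, against 23.3%, 68.2% and 38.6% of genes averaging 1 CPM or more. These counts take a library with 0 counts at 0 CPM. Their median log2 difference was -0.40 in RA-treated cells against ESCs (all genes -0.068) and 0.93 in OPCs against ESCs (all genes -0.194). Of the 10, Ccnd2 had the largest log2 difference to ESCs in both states. Next came Cdkn2a (2.99) in RA-treated cells, and Ccnd3 (-4.70) and Cdkn2a (4.15) in OPCs.

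Ccnd2 (chr6:127075797-127101066, minus strand, NCBIM37), the D cyclin of many neural progenitors, was nearly silent in ESCs, with 0 to 6.44 CPM and a median of 2.51 CPM over the 32 libraries. It stood at 443 and 807 CPM in WT-H3.3 RA-treated cells (24 and 72 h), at 296 and 764 CPM with H3.3K27M and at 311 and 869 CPM with H3.3K27L. In OPCs it reached 6267 and 7546 CPM with WT-H3.3, and 4732 and 6565 CPM with H3.3K27M. The groups did not overlap between any pair of states. The log2 difference was 7.73 (SE 0.17, adjusted p = 6.25e-22) between RA-treated cells and ESCs and 3.48 (SE 0.21, adjusted p = 2.93e-13) between OPCs and RA-treated cells, both by edgeR's quasi-likelihood test.

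The other D cyclins took different courses. Ccnd1 (chr7:152115836-152125774, minus strand) had a median of 119 CPM in ESCs, fell in RA-treated cells to between 16.9 and 81.0 CPM (median 34.6) and rose in OPCs to 344 and 286 CPM with WT-H3.3 and 529 and 416 CPM with H3.3K27M. Its log2 difference to ESCs was -1.84 (SE 0.16, adjusted p = 2.12e-10) in RA-treated cells and 1.76 (SE 0.16, adjusted p = 2.21e-10) in OPCs, by edgeR. The RA-treated and OPC libraries did not overlap, and neither did the OPC and ESC libraries. Ccnd3 (chr17:47642000-47736632, plus strand) went the other way. Its median in ESCs was 148 CPM, and the 4 OPC libraries held 5.34, 4.96, 5.39 and 6.23 CPM, a log2 difference of -4.70 (SE 0.20, adjusted p = 4.24e-17, edgeR).

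Per kilobase of annotated exon, a scale that presumes reads spread over the whole transcript, the D cyclin messages of ESCs were 68.1% ± 5.76 Ccnd3 and 31.4% ± 5.67 Ccnd1, with Ccnd2 at 0.497% ± 0.241 (SD, n = 32). In RA-treated cells at 24 h, Ccnd2 took 50.5% ± 9.01 of the same sum and Ccnd3 36.8% ± 6.198 (SD, n = 3). At 72 h Ccnd2 took 94.0% ± 0.509 (SD, n = 3), and in OPCs 90.9% ± 3.82 with Ccnd1 at 8.91% ± 3.79 (SD, n = 4). On this scale the dominant D cyclin message was Ccnd3 in every ESC library, where its lowest share was 57.2%. It was Ccnd2 in every RA-treated and OPC library, where its lowest share was 43.1%. The ESC libraries here include the shallow H3.3K27L one, with 2 counts of Ccnd3 and 1 of Ccnd1. The ESC ranking depended on the scale. By CPM, Ccnd1 exceeded Ccnd3 in some ESC libraries at 72 h, such as WT-H3.3 replicate 2 (124.7 against 105.4 CPM).

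The E cyclins were highest in ESCs and lowest in OPCs, with RA-treated cells between them. Ccne1 (chr7:38883003-38892553, minus strand) had medians of 232 CPM in ESCs, 80.2 CPM in RA-treated cells and 43.7 CPM in OPCs. Ccne2 (chr4:11118498-11131926, plus strand) had medians of 44.1, 26.5 and 11.3 CPM in the same order. Every step of this order was called for both genes. Between RA-treated cells and ESCs the log2 difference was -1.41 (SE 0.14, adjusted p = 1.31e-09) for Ccne1 and -0.75 (SE 0.17, adjusted p = 0.000254) for Ccne2, and between OPCs and RA-treated cells it was -1.24 (SE 0.19, adjusted p = 3.16e-06) and -1.59 (SE 0.24, adjusted p = 3.01e-06), all by edgeR.

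The D cyclin kinases separated. Cdk4 (chr10:126500590-126504976, plus strand) had a median of 588 CPM in ESCs and stood at 29.6 to 67.2 CPM in OPCs, a log2 difference of -3.66 (SE 0.21, adjusted p = 1.31e-14, edgeR), with no overlap. Cdk6 (chr5:3343893-3523218, plus strand) had a median of 72.2 CPM in ESCs and 76.6 CPM in RA-treated cells, which did not pass the test (log2 difference 0.21, SE 0.11, adjusted p = 0.0957, edgeR). It passed with DESeq2 (0.46, adjusted p = 0.000277) and with DESeq2 size factors in edgeR (0.46, adjusted p = 0.00076). Per kilobase of exon, the Cdk4 to Cdk6 ratio was 9.36 ± 3.10 in ESCs (SD, n = 32) and 10.3 ± 1.49 in RA-treated cells at 24 h (SD, n = 3). It was 0.943 ± 0.0549 in RA-treated cells at 72 h (SD, n = 3). The lowest ESC ratio, 2.87, was that of the shallow H3.3K27L library, with 10 counts of Cdk4 and 4 of Cdk6. In OPCs, Cdk6 was higher than in ESCs over both lines (log2 difference 0.71, SE 0.13, adjusted p = 2.65e-05, edgeR), but with 258 and 267 CPM in WT-H3.3 and 41.5 and 48.5 CPM in H3.3K27M libraries, so that it was the only member whose OPC and ESC libraries overlapped.

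Of the inhibitors, Cdkn2a (chr4:88920377-88940557, minus strand) and Cdkn2b (chr4:88952198-88956941, minus strand) were low in ESCs and rose in both differentiated states. Cdkn2a had a median of 22.3 CPM in ESCs, 70.4 to 81.4 CPM in RA-treated cells at 24 h, 208 to 428 CPM at 72 h, and 609, 477, 340 and 251 CPM in the OPC libraries (WT-H3.3 at 24 and 72 h, then H3.3K27M). Cdkn2b had a median of 3.34 CPM in ESCs, 8.25 to 39.7 CPM in RA-treated cells and 7.29 to 77.2 CPM in OPCs. Neither gene's RA-treated or OPC libraries overlapped with the ESC libraries compared, other than the shallow H3.3K27L library, whose limit of 43.8 CPM for Cdkn2b lies above the RA-treated values. The log2 differences to ESCs were 2.99 (SE 0.12, adjusted p = 2.27e-17) and 4.15 (SE 0.14, adjusted p = 4.12e-19) for Cdkn2a and 2.7 (SE 0.18, adjusted p = 7.01e-13) and 2.68 (SE 0.20, adjusted p = 3.14e-12) for Cdkn2b, in RA-treated cells and OPCs in turn, by edgeR. Cdkn1b (chr6:134870419-134875531, plus strand) did not pass the test between RA-treated cells and ESCs (log2 difference -0.06, SE 0.13, adjusted p = 0.702, edgeR). In OPCs it rose to 231, 248, 209 and 241 CPM, from 79.1 to 137 CPM in the 8 ESC libraries compared (log2 difference 1.15, SE 0.14, adjusted p = 5.24e-08, edgeR).

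The wider cell cycle lists were read against the same shares of all genes. Of the 21 tested G1/S network genes, 6 were higher and 8 lower in RA-treated cells than in ESCs (75.1% of all genes were called), and 8 were higher and 12 lower in OPCs (84.8%). Those higher in OPCs than in ESCs were E2f6 (log2 difference 2.81), Cdkn2c (2.18), Rb1 (1.79), Cdkn1a (1.52), Fbxw7 (1.52), Cks1b (1.33), Cdkn1c (1.304) and Mnat1 (0.67), and those lower included Skp2 (-1.41), Cdc25a (-1.21), E2f1 (-1.10) and E2f8 (-1.09). Of the 10 S to M phase genes, 8 were lower in both differentiated states (medians -0.77 and -1.56), among them Mki67 (-1.24 and -2.98) and Bub1 (-1.39 and -3.43), while Plk1, a mitotic kinase, was higher in both (0.55 and 1.29).

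The states were sampled as separate experiments, and both a QuantSeq 3′ and a KAPA kit were used by the authors, with no statement of which library was made with which, so state, experiment and kit cannot be told apart. In the methods Dox was added during RA treatment, so Dox time and RA time cannot be told apart. RA-treated cells at 72 h differed from those at 24 h in 69.5% of all genes tested. The difference moved with exon length: the median log2 ratio of 72 h over 24 h was 0.41 in the quartile of genes with the shortest exon sequence and -0.70 in that with the longest. Against ESCs of the same Dox time, RA-treated cells had medians of -0.36 and 0.38 at 24 h and, the other way, 0.44 and -0.39 at 72 h. For OPCs over ESCs these medians were 0.54 and -0.08, and for H3.3K27M over WT-H3.3 OPCs 0.07 and -0.01. The RA-treated libraries of 24 h and those of 72 h were deposited separately, so Dox time and preparation cannot be told apart between them. The part of library preparation in the differences between states and times was not tested. The other usual scaling (DESeq2 size factors) moved the median of all genes by 0.243 (RA-treated cells against ESCs), 0.353 (OPCs against ESCs) and 0.111 (OPCs against RA-treated cells) on the log2 scale, and no called member lost its call or turned direction with it in these comparisons. Cdk6 gained a call with it in RA-treated cells against ESCs and in OPCs against RA-treated cells (0.43, adjusted p = 0.0211, edgeR).

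**Figure D2:**
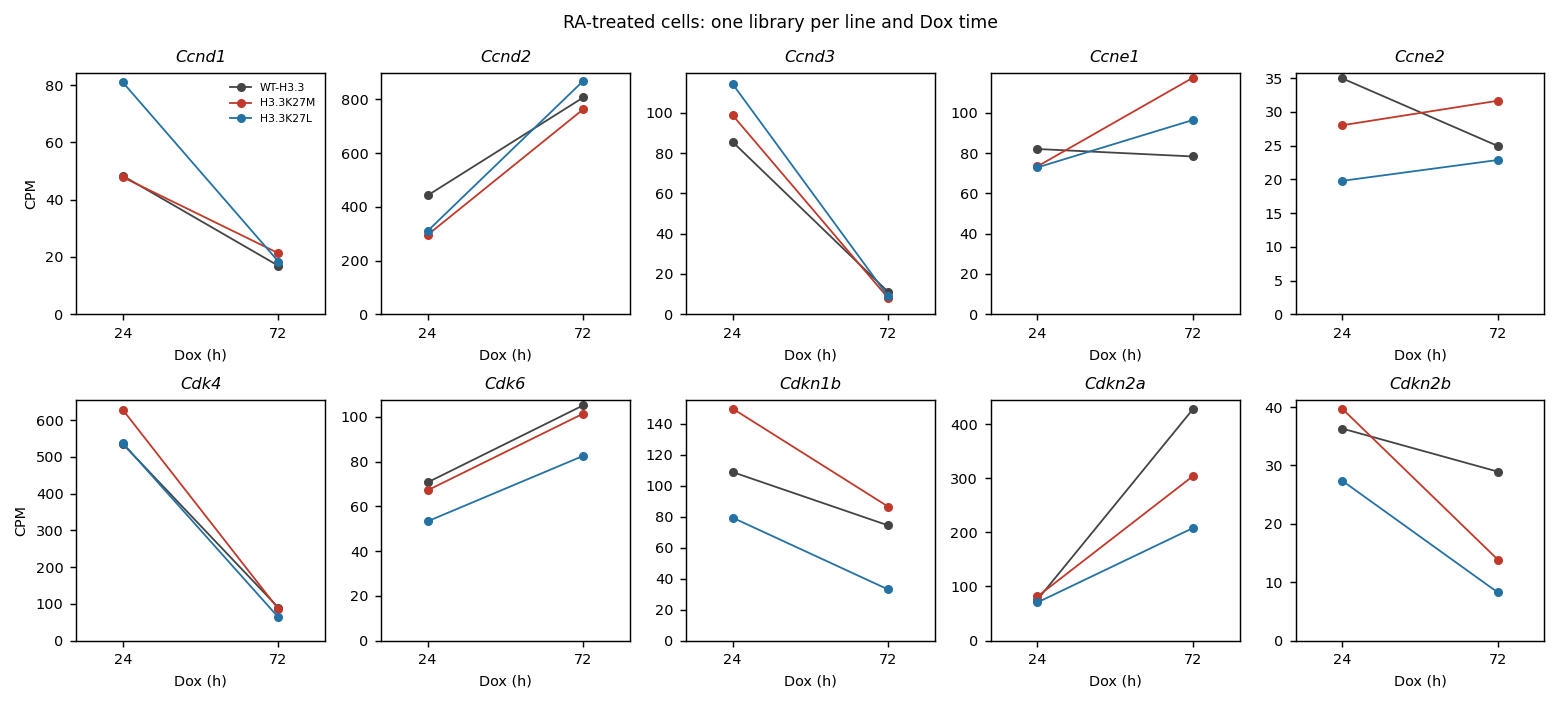
Normalised read count (CPM) of the 10 genes in RA-treated cells at 24 and 72 h of Dox, with 1 library per point and lines joining the libraries of a line. In all 3 lines Ccnd1, Ccnd3, Cdk4 and Cdkn1b were lower at 72 h, and Ccnd2, Cdk6 and Cdkn2a higher.

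Between the RA-treated Dox times, 4 members rose and 5 fell, 9 of 10 against 69.5% of all genes. Ccnd3 dropped from 85.6, 98.9 and 114 CPM at 24 h (WT-H3.3, then H3.3K27M, then H3.3K27L) to 11.1, 8.07 and 8.89 CPM at 72 h, a log2 difference of -3.22 (SE 0.19, adjusted p = 2.79e-08, edgeR). Cdk4 went from 535, 628 and 537 CPM to 89.5, 85.6 and 63.2 CPM (log2 difference -2.64, SE 0.15, adjusted p = 2.25e-08, edgeR), and Cdkn2a from 75.4, 81.4 and 70.4 CPM to 428, 304 and 208 CPM (log2 difference 2.20, SE 0.18, adjusted p = 3.58e-07, edgeR). The times did not overlap for any of these 3 genes, nor for 3 others (6 of 10, against 64.1% of genes averaging 1 CPM or more). Ccnd2 (1.45), Cdk6 (0.81) and Ccne1 (0.57) also rose and Ccnd1 (-1.40), Cdkn2b (-0.93) and Cdkn1b (-0.64) also fell, on the log2 scale. With 1 library left out, the call of Ccne1 was lost without either H3.3K27M library (adjusted p = 0.145 and 0.124, 24 and 72 h), that of Cdkn2b without the H3.3K27M library at 24 h (0.0515) and that of Cdkn1b without the H3.3K27L library at 72 h (0.0523), all by edgeR. The comparison of RA-treated cells with ESCs depended on the time for Cdk4, which did not pass the test at 24 h (log2 difference -0.14, SE 0.19, adjusted p = 0.555, edgeR) and fell at 72 h (-2.54, SE 0.23, adjusted p = 3.53e-10). Ccnd3 was lower at both times, by -0.71 (SE 0.17) and -3.88 (SE 0.24). Cdkn2a in OPCs exceeded RA-treated cells at 24 h (2.36, SE 0.22) but not at 72 h (-0.001, SE 0.208, adjusted p = 1). These values at single times were added after seeing the data. Of the G1/S network genes, 8 rose and 4 fell from 24 to 72 h, led by Cks1b (2.97), and of the S to M phase genes Plk1 (2.31), Cdk1 (2.22), Aurka (1.23) and Ccnb1 (1.18) rose while Mki67 (-2.94), Bub1 (-0.97) and Aurkb (-0.49) fell.

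The next comparison asked whether H3.3K27M, H3.3K27L or PRC2 inhibition altered the members in undifferentiated ESCs. All 3 were set against the same 8 WT-H3.3 libraries. No member was called with H3.3K27M (0.0143% of 14012 genes tested were, with 1619 at an unadjusted p under 0.05), and none at 24 and 72 h alone (0%, with 593 at an unadjusted p under 0.05). None was called with GSK343 over all times (0%, with 678 at an unadjusted p under 0.05) or at 24 and 72 h (0%, with 127). In WT-H3.3 cells themselves, none was called between 24 and 72 h and 4 and 8 h of Dox (0.128%).

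In H3.3K27M ESCs the PRC2 targets stood close to WT-H3.3 levels. Cdkn2a ran from 13.7 to 28.7 CPM (median 20.6) against 13.1 to 29.7 CPM (median 23.6) in WT-H3.3 cells, which differed by -0.05 on the log2 scale (SE 0.15). Cdkn2b ran from 2.11 to 5.02 CPM (median 3.501) against 2.32 to 4.997 CPM (median 3.40), with a log2 fold change of -0.03 (SE 0.19). The groups overlapped for all 10 members. Replicate numbers paired these libraries, and within the 8 pairs Ccnd2 was lower with H3.3K27M in 8 and Ccnd3 higher in 8 (2 of 10 members one way in every pair, against 8.22% of genes averaging 1 CPM or more). With the replicate number as a block neither was called by edgeR, Ccnd2 at -0.90 (adjusted p = 0.162) and Ccnd3 at 0.20 (adjusted p = 0.525). The member farthest from 0 was Ccnd2 (-0.88, SE 0.32, adjusted p = 0.29, edgeR), with 0.267 to 2.56 CPM against 1.12 to 4.80 CPM, and without the H3.3K27M library of replicate 1 at 8 h it passed the test (-1.42, adjusted p = 0.0231). Cdkn1b (0.33, SE 0.14) and Cdk6 (-0.33, SE 0.13) followed, with adjusted p = 0.35 and 0.327 by edgeR.

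With GSK343, Cdkn2b ran from 1.62 to 6.72 CPM with a median of 5.34 CPM, against 2.32 to 4.997 CPM in WT-H3.3 cells without it. Its log2 fold change of 0.57 (SE 0.19) had an unadjusted p of 0.0056 but an adjusted p of 0.973 by edgeR's quasi-likelihood test across all genes. Its lowest value came from the shallow GSK343 library (2 counts, under the 3 that a count of 0 allows). Without the other GSK343 library at 8 h, which leaves that time to the shallow one, the log2 fold change was 0.26 (SE 0.26). Over the 16 fits that left out 1 library it ran from 0.255 to 0.671. Cdkn2a ran from 23.4 to 32.9 CPM (median 26.5) against the WT-H3.3 values above (log2 difference 0.29, SE 0.15, adjusted p = 0.973, edgeR), and the remaining members lay between -0.13 and 0.33.

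**Figure D3:**
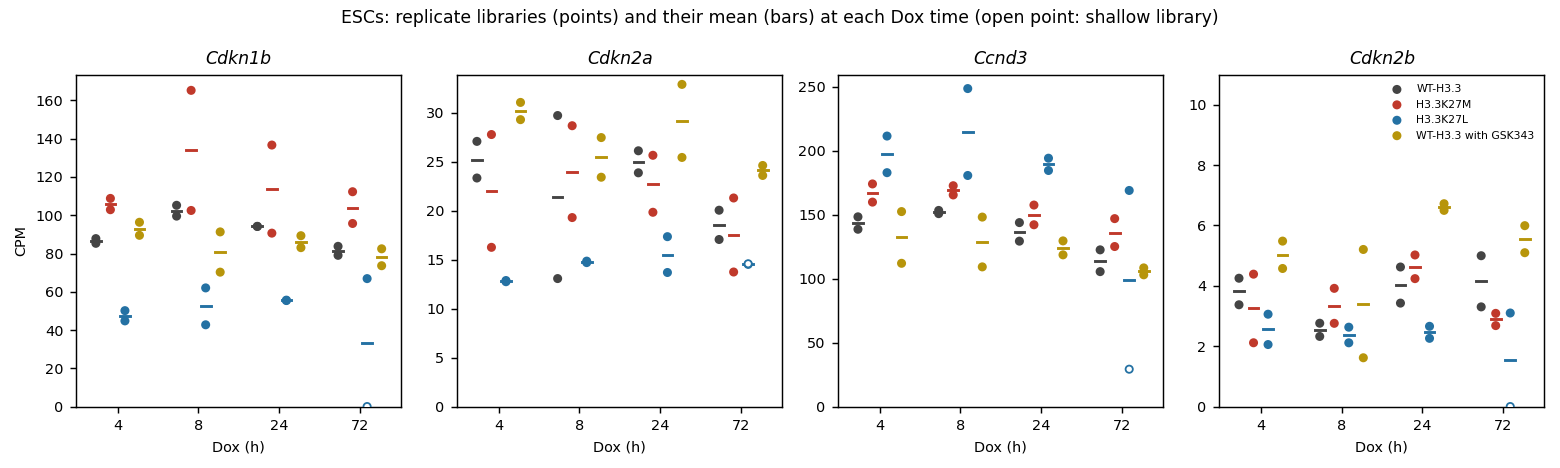
Normalised read count (CPM) of Cdkn1b, Cdkn2a, Ccnd3 and Cdkn2b in ESCs against hours of Dox, with 1 point per replicate library and a bar at their mean. The H3.3K27L libraries lie below WT-H3.3 for Cdkn1b at each time, and the open points are the shallow library with 68378 counts.

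In H3.3K27L ESCs, 3 of the 10 members were called over all Dox times, against 8.14% of all genes. Cdkn1b fell, Cdkn2a fell and Ccnd3 rose. The median log2 fold change was -0.27 over the 10 members and -0.004 over all genes. At 24 and 72 h alone none was called (0.692% of all genes were).

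Cdkn1b, the p27 inhibitor, was at 50.1 and 44.8 CPM at 4 h, 62.0 and 42.7 CPM at 8 h, 55.4 and 55.6 CPM at 24 h and 66.9 and 0 CPM at 72 h in H3.3K27L cells, the last value being the shallow library. WT-H3.3 cells held 79.1 to 105 CPM (median 91.0). Every H3.3K27L library lay below every WT-H3.3 library, and Cdkn1b was the only member without overlap (1.46% of genes averaging 1 CPM or more had none). The log2 fold change was -0.76 (SE 0.14, adjusted p = 0.00156, edgeR), and -0.71 (SE 0.12, adjusted p = 0.000582) without the shallow library. Without the deeper library at 72 h, which leaves that time to the shallow one, it was -3.75 (SE 0.55, adjusted p = 0.000816). The lower level was already present at 4 h of Dox, and cells without Dox were not analysed here, so an effect of the line and of the induced histone cannot be told apart.

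Cdkn2a was at 12.7 to 17.4 CPM in H3.3K27L cells (median 14.6) against 13.1 to 29.7 CPM in WT-H3.3 cells (median 23.6), so the groups overlapped. The fitted difference was -0.63 on the log2 scale (SE 0.16, adjusted p = 0.0172, edgeR). The call was lost without replicate 1 of WT-H3.3 at 8 h (adjusted p = 0.0683), which held the highest WT-H3.3 value, or the deeper H3.3K27L library at 72 h (adjusted p = 0.352). Ccnd3 ran from 29.2 to 248 CPM (median 184) against 105 to 153 CPM (median 141), and all H3.3K27L libraries other than the shallow one lay above the WT-H3.3 range. The fitted difference was 0.44 (SE 0.13, adjusted p = 0.0325, edgeR) and 0.50 (SE 0.10, adjusted p = 0.00188) without the shallow library. Without the deeper H3.3K27L library at 72 h it was -0.16 (SE 0.18, adjusted p = 0.826), and the call was also lost with DESeq2 (adjusted p = 0.0752), with only the groups compared in the fit (adjusted p = 0.133, edgeR) and in 10 other fits that left out 1 library (adjusted p from 0.0501 to 0.0985).

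Cdkn2b was lower in H3.3K27L than WT-H3.3 ESCs by -0.46 on the log2 scale (SE 0.20), which did not pass the test (adjusted p = 0.178, edgeR), and Ccnd2 was higher by 0.94 (SE 0.30, adjusted p = 0.0569). Ccnd2 ran from 4.08 to 6.44 CPM outside the shallow library, against 1.12 to 4.80 CPM in WT-H3.3 cells. It passed the test without the filter on low counts (adjusted p = 0.00556), with only the groups compared (0.0397) and without replicate 1 of WT-H3.3 at 4 h (0.0386). It also passed with the replicate number as a block (0.0263). Libraries of 1 number deviated in opposite directions at 4, 8 and 24 h (r = -0.598, -0.707 and -0.676), so these numbers, as labelled, were not taken as pairs. Of the 21 tested genes of the G1/S network list (Rb and E2F families, other CDK inhibitors, CDK2 and its regulators), Rb1, the retinoblastoma gene, rose (0.77, SE 0.22, adjusted p = 0.0266) and Cdkn2c, the p18 inhibitor, fell (-0.77, SE 0.22, adjusted p = 0.0339, edgeR). None of the 10 genes of the S to M phase list was called in any of the ESC comparisons, where their log2 fold changes lay between -0.27 and 0.38.

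In RA-treated cells the lines were compared with Dox time as a term, since each line had 1 library a time. No member was called with H3.3K27M (0.0163% of 12233 genes). With H3.3K27L, 1 of 10 was called, against 6.96% of all genes, and between H3.3K27M and H3.3K27L 1 of 10, against 12.5%. In both cases this was Cdkn1b.

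Cdkn1b stood at 109 and 74.4 CPM in WT-H3.3 RA-treated cells at 24 and 72 h, at 150 and 86.5 CPM with H3.3K27M and at 79.4 and 33.0 CPM with H3.3K27L. H3.3K27L was the lowest and H3.3K27M the highest at both times. The log2 fold change was -0.77 (SE 0.20, adjusted p = 0.0364) for the H3.3K27L cells against WT-H3.3 ones and 1.08 (SE 0.19, adjusted p = 0.00355) between H3.3K27M and H3.3K27L, by edgeR's quasi-likelihood test. Without the Dox time term, the same differences were -0.74 and 1.06 with adjusted p = 1 by edgeR. The first was not called without the H3.3K27L library at 72 h (-0.51, adjusted p = 0.32), nor the second without the H3.3K27M library at 24 h (1.15, adjusted p = 0.087). The H3.3K27L effect on Cdkn1b was not shown to differ between RA-treated cells and ESCs (difference -0.15, SE 0.32, adjusted p = 0.947, edgeR), nor was that of any member (0.221% of all genes were called). For H3.3K27M the same test called no member (0%, with 707 genes at an unadjusted p under 0.05).

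The 2 INK4 genes ran the same way at 72 h. Cdkn2a was at 428, 304 and 208 CPM and Cdkn2b at 28.9, 13.9 and 8.25 CPM in the WT-H3.3, the H3.3K27M and the H3.3K27L cells. At 24 h Cdkn2a was at 75.4, 81.4 and 70.4 CPM and Cdkn2b at 36.3, 39.7 and 27.4 CPM, with H3.3K27M the highest for both. The fitted log2 fold change of H3.3K27L was -0.61 (SE 0.21, adjusted p = 0.115) for Cdkn2a and -0.94 (SE 0.31, adjusted p = 0.0894) for Cdkn2b by edgeR, so neither passed. Both were called without the WT-H3.3 or H3.3K27L library at 24 h, and without that WT-H3.3 library they were called with H3.3K27M too (-0.64, adjusted p = 0.0309, and -1.19, adjusted p = 0.0225).

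Of the wider lists, 1 network gene was called between H3.3K27L and WT-H3.3 RA-treated cells, Cdk2, the partner of the E cyclins, which was higher (0.69, SE 0.17, adjusted p = 0.0297, edgeR). Between H3.3K27M and H3.3K27L, Cdkn1c (-0.70) and Mki67 (-0.62) were lower with H3.3K27M.

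Among the RA-treated lines, H3.3K27L also differed from the others in cell type markers. Between H3.3K27M and WT-H3.3 no marker of any list was called (0.0163% of all genes were). The summed level of the 6 extraembryonic endoderm markers (Gata4, Gata6, Sox17, Sox7, Dab2 and Lama1) was 3392, 998 and 6713 CPM at 24 h and 686, 600 and 1887 CPM at 72 h in the WT-H3.3, the H3.3K27M and the H3.3K27L cells, with all 6 at 1 CPM or more in each library. All 6 were called higher with H3.3K27L than with WT-H3.3, and lower with H3.3K27M than with H3.3K27L (6.96% and 12.5% of all genes were called). The 8 measured neural progenitor and RA response markers of 10 listed summed to 622 to 1145 CPM, with Pax6 between 11.6 and 40.0 CPM. Of the 7 tested, 1 was called higher and 2 lower with H3.3K27L than with WT-H3.3. With H3.3K27M against H3.3K27L, 4 were called higher and 1 lower. The 12 fibroblast markers summed to 599, 882 and 426 CPM at 24 h and to 666, 465.5 and 114 CPM at 72 h, in the same order of lines at each time as Cdkn2a and Cdkn2b. Of the 11 tested, 3 were called lower and 0 higher with H3.3K27L than with WT-H3.3. The 6 measured ESC markers summed to 266 to 324 CPM with H3.3K27L against 101 to 138 CPM with WT-H3.3, and 3 of the 5 tested (Sox2, Klf4 and Dppa5a) were higher with H3.3K27L. The labels call these cells neural progenitors. The part of the endoderm, fibroblast and ESC marker signals in the member values was not tested.

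Between the OPC lines more members were called than between the lines in ESCs or RA-treated cells. With H3.3K27M, 4 members rose and 3 fell, 7 of 10 against 51.5% of all 12467 genes tested. The E cyclins, Cdk4 and Ccnd1 were higher, and Cdk6, Cdkn2b and Cdkn2a were lower. The median log2 fold change of the members was 0.03 (all genes 0.001). Libraries of the lines did not overlap for 8 of the 10 members, but with 2 libraries a line this held for 76.2% of genes averaging 1 CPM or more.

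**Figure D4:**
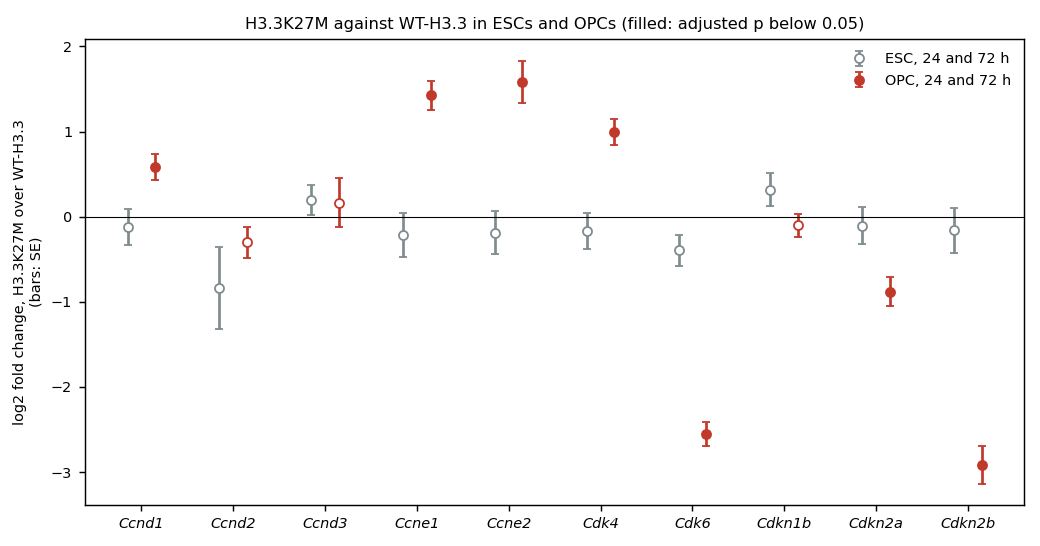
Log2 fold change of H3.3K27M over WT-H3.3 with its standard error for each gene, in ESCs at 24 and 72 h (grey) and in OPCs (red), with filled points where the adjusted p was under 0.05. The 10 ESC values lie between -0.84 and 0.32 and are all open, while in OPCs Cdkn2b (-2.92) and Cdk6 (-2.55) are the lowest and Ccne2 (1.59) and Ccne1 (1.42) the highest.

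Among the cyclins, Ccne1 was at 20.7 and 25.7 CPM in WT-H3.3 OPCs (24 and 72 h) and at 63.4 and 61.7 CPM with H3.3K27M (log2 difference 1.42, SE 0.17, adjusted p = 5.27e-05, edgeR). Ccne2 was at 5.34 and 6.54 CPM against 19.8 and 16.02 CPM (1.59, SE 0.25, adjusted p = 0.000339, edgeR). Ccnd1 was at 344 and 286 CPM against 529 and 416 CPM (0.58, SE 0.15, adjusted p = 0.0077, edgeR), and this call was lost without the H3.3K27M library at 24 h (adjusted p = 0.0502). The H3.3K27M libraries were thus higher at both times for these 3 genes. Ccnd2, the most abundant D cyclin of OPCs, was at 6267 and 7546 CPM against 4732 and 6565 CPM, which did not pass the test (-0.30, SE 0.18, adjusted p = 0.197) and did with the replicate number as a term (-0.31, adjusted p = 0.0112, edgeR). By the sample titles this number is also the Dox time (2 at 24 h, 1 at 72 h), while the count table heads all 4 OPC columns as replicate 2. Without the H3.3K27M library at 72 h Ccnd2 passed too (-0.54, adjusted p = 0.0218, edgeR). Ccnd3 did not pass (0.17, SE 0.29, adjusted p = 0.662).

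The kinases moved in opposite directions. Cdk4 was at 34.3 and 29.6 CPM in WT-H3.3 OPCs and 60.9 and 67.2 CPM with H3.3K27M (log2 fold change 1.00, SE 0.15, adjusted p = 0.000299, edgeR). Cdk6 was at 258 and 267 CPM against 41.5 and 48.5 CPM (-2.55, SE 0.14, adjusted p = 2.42e-07, edgeR), 6.22-fold lower at 24 h and 5.50-fold lower at 72 h. Per kilobase of exon, the Cdk4 to Cdk6 ratio was 0.153 and 0.127 in the WT-H3.3 libraries (mean 0.140 ± 0.0179) and 1.64 ± 0.0653 with H3.3K27M (SD, n = 2 each).

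The INK4 genes were lower with H3.3K27M. Cdkn2b was at 77.2 and 73.1 CPM in WT-H3.3 OPCs against 7.29 and 12.6 CPM (log2 fold change -2.92, SE 0.22, adjusted p = 1.8e-06, edgeR), 10.6-fold lower at 24 h and 5.80-fold lower at 72 h. Cdkn2a was at 609 and 477 CPM against 340 and 251 CPM (-0.88, SE 0.17, adjusted p = 0.00129, edgeR). The WT-H3.3 libraries were the higher at both times for both genes. Cdkn1b was at 231 and 248 CPM against 209 and 241 CPM and did not pass the test (-0.10, SE 0.13, adjusted p = 0.544). Reads of p16 and p19Arf fall on the same Cdkn2a count, so the transcripts could not be told apart.

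The stretches upstream of the genes that fell in H3.3K27M OPCs are shown because the PRC2 targets among them differ in the CpG content of their promoters, a property that marks many PRC2-bound promoters. Each is the window from 250 to 51 bases before a RefSeq transcript start (GRCm38.p6), on the strand of the gene, with CG dinucleotides in capitals. RefSeq promoters were at hand for 7 of the 10 members (Ccnd3, Ccne1, Cdk4, Cdk6, Cdkn1b, Cdkn2a and Cdkn2b). The first Cdkn2a window is that of p19Arf and the second that of p16, by their order on the chromosome.
Cdkn2b, chr4:89311083-89311282, minus strand: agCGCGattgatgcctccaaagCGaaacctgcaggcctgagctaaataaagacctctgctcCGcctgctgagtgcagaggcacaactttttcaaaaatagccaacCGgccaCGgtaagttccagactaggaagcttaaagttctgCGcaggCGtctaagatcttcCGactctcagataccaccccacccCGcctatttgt
Cdkn2a (p19Arf), chr4:89294670-89294869, minus strand: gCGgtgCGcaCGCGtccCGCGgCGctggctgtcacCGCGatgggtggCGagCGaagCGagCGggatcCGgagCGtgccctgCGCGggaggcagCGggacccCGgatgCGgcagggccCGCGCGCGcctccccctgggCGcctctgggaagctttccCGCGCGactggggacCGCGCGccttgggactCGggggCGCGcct
Cdkn2a (p16), chr4:89282243-89282442, minus strand: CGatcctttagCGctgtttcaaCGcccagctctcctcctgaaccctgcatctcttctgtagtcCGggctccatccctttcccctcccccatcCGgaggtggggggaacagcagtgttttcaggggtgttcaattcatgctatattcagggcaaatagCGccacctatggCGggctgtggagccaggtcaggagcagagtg
Cdk6, chr5:3343643-3343842, plus strand: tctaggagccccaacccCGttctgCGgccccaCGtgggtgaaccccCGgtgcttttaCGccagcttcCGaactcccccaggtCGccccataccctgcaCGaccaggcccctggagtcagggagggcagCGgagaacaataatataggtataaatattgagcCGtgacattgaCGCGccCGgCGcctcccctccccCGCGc

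The p19Arf window held 34 CG dinucleotides, more than 99.2% of the 32851 promoter windows in the table, while the p16 window held 7 (more than 61.7%), the Cdkn2b window 10 (more than 70.7%) and the Cdk6 window 16 (more than 84.1%). The median window held 4. Across the 9 windows of the 7 members the count ran from 7 to 34, and Ccne1, which rose in H3.3K27M OPCs, held 27. An E2F motif (TTTCCCGC, TTTGCCGC, TTTCGCGC or TTTGGCGC on either strand) was present in 1 of the 9 windows, that of p19Arf, and in 1.46% of all windows. A match to these letters is a description of the sequence only.

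The OPC members did not move alone in the cell cycle machinery. Of the 21 tested genes of the G1/S network list, 12 rose and 4 fell with H3.3K27M (median log2 fold change 1.18). Of all 12467 genes tested, 51.5% were called, 3120 higher and 3303 lower. Those that rose included the E2F genes E2f8 (2.25), E2f2 (1.70), E2f1 (1.67), E2f7 (1.39) and E2f3 (1.18). Skp2 (2.12), the ubiquitin ligase subunit that targets p27, its cofactor Cks1b (1.63), the Rb relative Rbl1 (1.34), the phosphatase gene Cdc25a (1.32) and Cdk2 (0.96) rose too. The CDK inhibitors Cdkn2c (1.87) and Cdkn1c (1.57) also rose, while Cdkn1a (-1.13), the p21 inhibitor, fell together with Mnat1 (-1.08), Cdk7 (-0.76) and Ccnh (-0.47), the 3 subunits of the CDK-activating kinase. All 10 genes of the S to M phase list rose, with log2 fold changes from 1.20 (Aurka) to 2.27 (Top2a) and a median of 1.68. The proliferation marker Mki67 was at 27.8 and 34.0 CPM in WT-H3.3 OPCs and at 96.3 and 93.5 CPM with H3.3K27M.

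**Figure D5:**
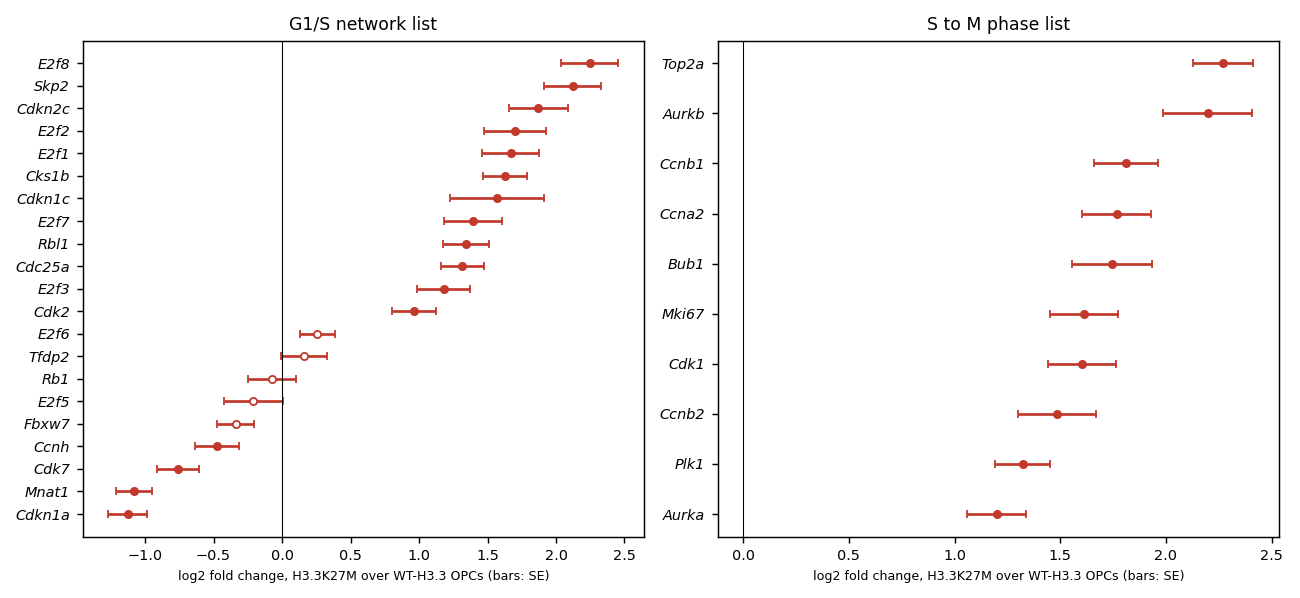
Log2 fold change of H3.3K27M over WT-H3.3 OPCs, with its standard error, for the tested genes of the G1/S network list (left) and the S to M phase list (right), with filled points where the adjusted p was under 0.05. The 10 S to M phase genes lie between 1.20 and 2.27, and the network list runs from Cdkn1a (-1.13) to E2f8 (2.25).

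Markers of other cell types moved with the OPC lines. The 12 fibroblast markers summed to 770 to 813 CPM in WT-H3.3 OPCs, with all 12 at 1 CPM or more, and to 40.8 to 42.9 CPM with H3.3K27M, with 5 of 12 at that level. Col1a1 was at 178 to 183 CPM against 2.67 to 4.91 CPM and Dcn at 107 to 109 CPM against 1.93 to 2.85 CPM. The 4 astrocyte markers summed to 901 to 910 against 973 to 1333 CPM, but 3 of them were called lower with H3.3K27M and 1 higher. Of these, Gfap was at 26.3 to 37.3 CPM against 0 to 0.317 CPM. The 4 measured neuron markers summed to 33.4 to 49.9 against 244 to 337 CPM, with 2 called higher and 2 lower (51.5% of all genes were called). The 8 measured neural progenitor and RA response markers summed to 324 to 328 against 783 to 810 CPM, with 4 of the 5 tested higher with H3.3K27M. The 6 extraembryonic endoderm markers summed to 126 to 169 against 18.7 to 23.4 CPM. Of the 3 ESC markers tested, 2 were called higher and 1 lower with H3.3K27M, with log2 fold changes from -3.93 to 3.25. Of the 6 OPC markers, 4 were called higher and 2 lower with H3.3K27M (median log2 fold change 1.57). Olig1 and Olig2 summed most of their signal, 1098 to 1141 CPM of Olig2 with H3.3K27M against 303 to 368 CPM. Pdgfra, a defining marker of OPCs, was at 17.3 to 25.6 CPM with WT-H3.3 and at most 0.890 CPM with H3.3K27M, and Sox10 did not exceed 3.72 CPM in any OPC library. The part of this difference in cell makeup in the values of Cdk6, Cdkn2a, Cdkn2b and the cycle genes was not tested.

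The OPC effect of H3.3K27M was then tested against the ESC effect at the same Dox times, in a fit across the states. It differed for 6 of the 10 members, against 20.2% of all 15828 genes tested. Ccne1 (difference 1.65, SE 0.32, adjusted p = 0.000536), Ccne2 (1.77, SE 0.41, adjusted p = 0.00265) and Cdk4 (1.16, SE 0.34, adjusted p = 0.0174) were more positive in OPCs by edgeR. Cdk6 (-2.15, SE 0.28, adjusted p = 3.15e-06), Cdkn2b (-2.82, SE 0.41, adjusted p = 1.79e-05) and Cdkn2a (-0.78, SE 0.28, adjusted p = 0.0482) were more negative. The Cdkn2a call lay at the threshold and was lost with DESeq2 (adjusted p = 0.06) and in 10 of the 12 fits that left out a library from either state. The Cdk4 call was lost whichever of the 4 OPC libraries was left out (adjusted p from 0.0825 to 0.206), and without the Dox time term (0.672, edgeR). That of Ccne2 was lost without the H3.3K27M or the WT-H3.3 OPC library at 24 h (adjusted p = 0.0985 and 0.0986), which left 3 members called. Ccnd1 did not pass (0.70, SE 0.34, adjusted p = 0.151, edgeR). As ESCs and OPCs were separate experiments, state and experiment cannot be told apart here either.

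Finally, the genes whose levels followed a member most closely over the 42 libraries were listed, by Spearman's rho among 13565 other genes averaging 1 CPM or more. The libraries of a state share their experiment, so these values mainly reflect the order of the states and are given as a description. For Ccnd1 they were Olig2 (rho 0.921), an OPC transcription factor, and 6330407J23Rik (0.911), and for Ccnd2 Lypla2 (0.892) and Chst10 (0.866). For Ccne1 they were the mitochondrial ribosomal protein genes Mrps27 (0.969) and Mrpl15 (0.961). For Cdkn1b they were Igfbp2 (0.836) and H2afj (0.803), and for Cdkn2a the tubulin gene Tuba1a (0.907) and Pfn2 (0.906).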

How the data were processed

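Count tables of 42 RNA-seq libraries were analysed. The authors aligned single-end reads with STAR 2.7.1 to mm9 and deposited raw counts per Ensembl gene; the counting tool and strand setting are not given in the sources used here, so overlapping and antisense transcripts could not be separated. Chromatin samples were not analysed here, and 0 per-sample columns were left unused. The 10 members and all gene lists were chosen with earlier results of these data known. The named genes were the members, called genes of the network list, and for 5 members the 2 genes of highest Spearman rho. In comparisons across cell states and between RA-treated Dox times, the called network genes were named only in part or not at all. Some genes of the S to M phase and marker lists were named as examples.

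Genes of chromosome 8 were left out (2532 genes, 5.849% of counts). The annotation placed 1435 of them there. The place of the rest was inferred from the annotated genes on both sides of them in the count tables. Genes were filtered with filterByExpr, scaled by TMM and tested with edgeR 4.0.16 (quasi-likelihood test, two-sided, Benjamini-Hochberg adjustment over all genes tested, threshold 0.05) in R 4.3.3. ESC fits had a term per line and time, RA fits line and Dox time, OPC fits line, and the fit across states line within state and Dox time within state. DESeq2 1.42.0 was an alternative. Fits were tested on simulated data. Values at single Dox times and by exon length were added after seeing the data. No pair of replicates was identical (chi-square per gene 1.954 to 76.28 over 16 pairs). Replicate numbers paired H3.3K27M with WT-H3.3 ESCs: deviations from group means correlated at 0.615, 0.714, 0.608 and 0.712 (4, 8, 24 and 72 h, 8497 genes).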

Additional observations from a re-analysis of the deposited data

Results flagged for a closer look

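Within the ESC groups of 8 libraries, 40 sets of values were examined for a library far from the others, and 10 were marked, where chance marks about 1 in 20. Of these, 6 came from the H3.3K27L library of replicate 2 at 72 h, which held 68378 counts: Ccnd1 (14.6 CPM, the others 112 to 167), Ccnd3 (29.2 CPM, the others 169 to 248), Cdk4 (145.8 CPM, the others 453 to 696), and Ccnd2, Cdkn1b and Cdkn2b (0 CPM each, where the limit of a count of 0 was 43.8 CPM). Cdkn2a was at 17.4 CPM in the H3.3K27L library of replicate 1 at 24 h (the others 12.7 to 14.9). With GSK343, Ccnd2 was at 5.34 CPM in replicate 1 at 8 h (the others 1.62 to 3.26), Ccne2 at 78.1 CPM in replicate 2 at 4 h (the others 38.4 to 46.6) and Cdkn2b at 1.62 CPM in replicate 2 at 8 h (the others 4.57 to 6.72), a library of 1247934 counts.

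The effect of H3.3K27M differed between OPCs and ESCs, by a test of the difference, for Ccne1 (1.65), Ccne2 (1.77), Cdk4 (1.16), Cdk6 (-2.15), Cdkn2a (-0.78) and Cdkn2b (-2.82, log2 scale). Fibroblast markers (1 higher and 11 lower with H3.3K27M) and neuron markers (2 higher and 2 lower) also differed between the OPC lines, where 51.5% of all genes were called. Their part in the values of these 6 members was not tested.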

How the results depend on the processing

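Of the counts of called members, 282 of the alternative values kept within 1.5 times the original and 24 did not. With a 2-fold threshold added, the H3.3K27L ESC count went from 3 to 0, that of H3.3K27L RA-treated cells from 1 to 0, that of RA-treated cells between Dox times from 9 to 5 and that of H3.3K27M OPCs from 7 to 4. Without the filter on low counts it became 1 for H3.3K27M ESCs, 5 for H3.3K27L ESCs and 3 for H3.3K27L RA-treated cells. Without the Dox time term it became 0 for both RA comparisons that had called Cdkn1b. Leaving out each library in turn gave 1 to 3 members for H3.3K27L ESCs over all times, 0 to 1 at 24 and 72 h, 0 to 1 for H3.3K27M ESCs, 0 to 3 for H3.3K27L and 0 to 2 for H3.3K27M RA-treated cells, 0 to 2 between these lines, 7 to 10 between RA Dox times, 6 to 8 for H3.3K27M OPCs and 3 to 6 for the difference between OPCs and ESCs. The RA calls that appeared were Ccnd2 without the WT-H3.3 library at 72 h (-0.67 with H3.3K27M, -0.51 with H3.3K27L), with Ccne2 (-0.84, H3.3K27L), and Ccnd1 between the mutants without the H3.3K27L library at 72 h (-0.76). Ccnd3 in H3.3K27L ESCs ran from -0.161 (reversed, without replicate 1 at 72 h) to 0.503 (without replicate 2), and Cdkn2a between OPCs and RA-treated cells at 72 h alone (-0.001). Among single-gene values, 2661 kept their direction and side of the threshold, 50 lost and 35 gained a call, and of those that changed sign without a call in either fit 94 moved by less than the standard error and 38 by more. Without the Dox time term the calls of Cdk4 between RA-treated cells and ESCs (adjusted p = 0.167) and of Cdkn2a between OPCs and RA-treated cells (0.118, edgeR) were lost. The causes were not tested, beyond the fewer libraries of the fits that left one out. With the replicate block, the count was 0 for H3.3K27M ESCs, where the numbers pair the libraries, 4 for H3.3K27L, 0 for GSK343 and 8 for OPCs, Ccnd2 being added in H3.3K27L ESCs and OPCs. H3.3K27L and WT-H3.3 libraries of 1 number correlated at -0.598, -0.707, -0.676 and 0.261, and GSK343 and WT-H3.3 libraries at 0.007, -0.298, -0.46 and 0.586 (4, 8, 24 and 72 h), so these numbers, as labelled, were not taken as pairs. Exchanged numbers would also give negative values. With the numbers crossed in the replicate block where the correlation was under -0.1, chosen after seeing the data, 4 members were called with H3.3K27L and 0 with GSK343. Depth limits Cdkn2b and Ccnd2 in ESCs most, where levels were a few CPM.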

Other observations

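The CDK inhibitors outside the named group showed state patterns of their own. Cdkn1c, which codes for p57 and is an imprinted gene, was at 0.920 to 3.12 CPM in WT-H3.3 ESCs and at 47.7 to 59.7, 34.9 to 41.7 and 54.3 to 68.8 CPM in the WT-H3.3, the H3.3K27M and the H3.3K27L RA-treated cells, 21.5-fold higher in RA-treated cells than in ESCs (log2 difference 4.43, adjusted p = 7.44e-16, edgeR's quasi-likelihood test with Benjamini-Hochberg adjustment). It was lower again in OPCs, at 2.04 to 3.27 CPM with WT-H3.3 and 7.61 to 8.16 CPM with H3.3K27M. Cdkn1a, which codes for p21, was at 753 to 762 CPM in WT-H3.3 OPCs and 312 to 385 CPM in H3.3K27M OPCs, against 112 to 143 CPM in WT-H3.3 ESCs. Cdkn2c, a relative of Cdkn2a and Cdkn2b that codes for p18, was at 8.45 to 11.2 CPM in WT-H3.3 OPCs and 32.8 to 39.2 CPM in H3.3K27M OPCs, the opposite direction to Cdkn2a and Cdkn2b.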
